A study of Mus musculus with 8 samples.

Results

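The Wnt family as taken here comprised the Wnt ligands, their Frizzled, Lrp and Ror receptors, the secreted inhibitors and activators of the pathway, and the proteins that carry or restrain the signal inside the cell. Members were chosen by gene symbol alone, by a pattern that covers these gene families, with no use of measured values. Of the 49868 loci that carry a gene name in the deposited table, 63 matched, each on 1 locus, out of 76557 loci in all. The mouse annotation holds 69 symbols that match the pattern, and the other 6, Wnt5a, Fzd5, Sfrp1, Dkk3, Rspo2 and Nkd2, are not analysed here.

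The samples were cultures of mesenchymal stem cells (MSc), adherent stromal cells that can form bone, cartilage and fat, isolated from the femur and tibia of 8 mice. The wildtype group held cells of 4 C57Bl6/J mice, and the Has-tKO group held cells of 4 mice that lacked Has1 and Has3 constitutively and in which Has2 was deleted by inducible Cre recombination. Has1, Has2 and Has3 are the enzymes that make hyaluronan, a long sugar polymer of the extracellular matrix. Cells of both groups went through 4 passages, received 4-hydroxytamoxifen (48 h each time) during the second and the third of them, and were harvested after 7 days in osteogenic medium. The age of the mice, the strain of the Has-tKO mice, the promoter that drives Cre and whether wildtype mice carried Cre are not stated in the labels. Genotype, Cre and strain therefore cannot be told apart.

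Wnt proteins are secreted, lipid-modified signals that bind a Frizzled receptor together with the co-receptor Lrp5 or Lrp6. In the canonical branch this binding recruits Dvl and Axin proteins to the membrane and stops the breakdown of beta-catenin, which then acts with Tcf and Lef factors in the nucleus, while other branches run through Ror receptors, cell polarity proteins and calcium. In the skeleton the canonical branch is known to promote the formation of osteoblasts, and loss of the inhibitor Sost or gain of function in Lrp5 raises bone mass.

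Values are FPKM, fragments per kilobase of transcript scaled to the size of the library, as deposited, so levels of different genes are on a per-length scale. The read depth is unknown, which leaves counting errors without an estimate. The library type does not record the strand, so reads of overlapping antisense transcripts cannot be told apart from those of a member. Column sums ran from 198221 to 259871 FPKM. The library of wildtype 1 stood apart, with a median-ratio size factor of 0.655 against 0.987 to 1.12 in the other 7, 61.5% of its FPKM on loci without a name against 45.4% to 56.4%, and 24 members at 1 FPKM or more against 27 to 31. Has3 was listed at 0.236, 0.416, 0.466 and 0.394 FPKM in wildtype and at 0.663, 0.577, 0.622 and 0.150 in Has-tKO (p = 0.371, exact permutation test, two-sided as all such tests below), and Has1 and Has2 are not analysed here. Which part of Has3 was removed is not stated in the labels, so this level checks no label, and the group names below are those of the labels.

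Most of the 63 members were weakly expressed, and those well expressed were receptors and inhibitors rather than ligands. The 6 symbols that are not analysed, Wnt5a and Sfrp1 among them, are outside this statement and outside all rankings, sums and shares below. Of the 63 members, 29 reached 1 FPKM in at least 4 libraries and entered the test, 28 lay below this filter with a value above 0 somewhere, and 6 (Wnt3a, Wnt7a, Wnt8a, Wnt9b, Rspo1 and Kremen2) were listed at 0 in all 8 libraries. Among 18 ligands 3 were tested, against 8 of 11 Frizzled and Lrp receptors and 5 of 6 secreted Wnt-binding inhibitors. By mean FPKM the Wnt antagonist Sfrp2 led the family, followed by Fzd1, Fzd2, Fzd8 and Frzb.

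**Figure D1:**
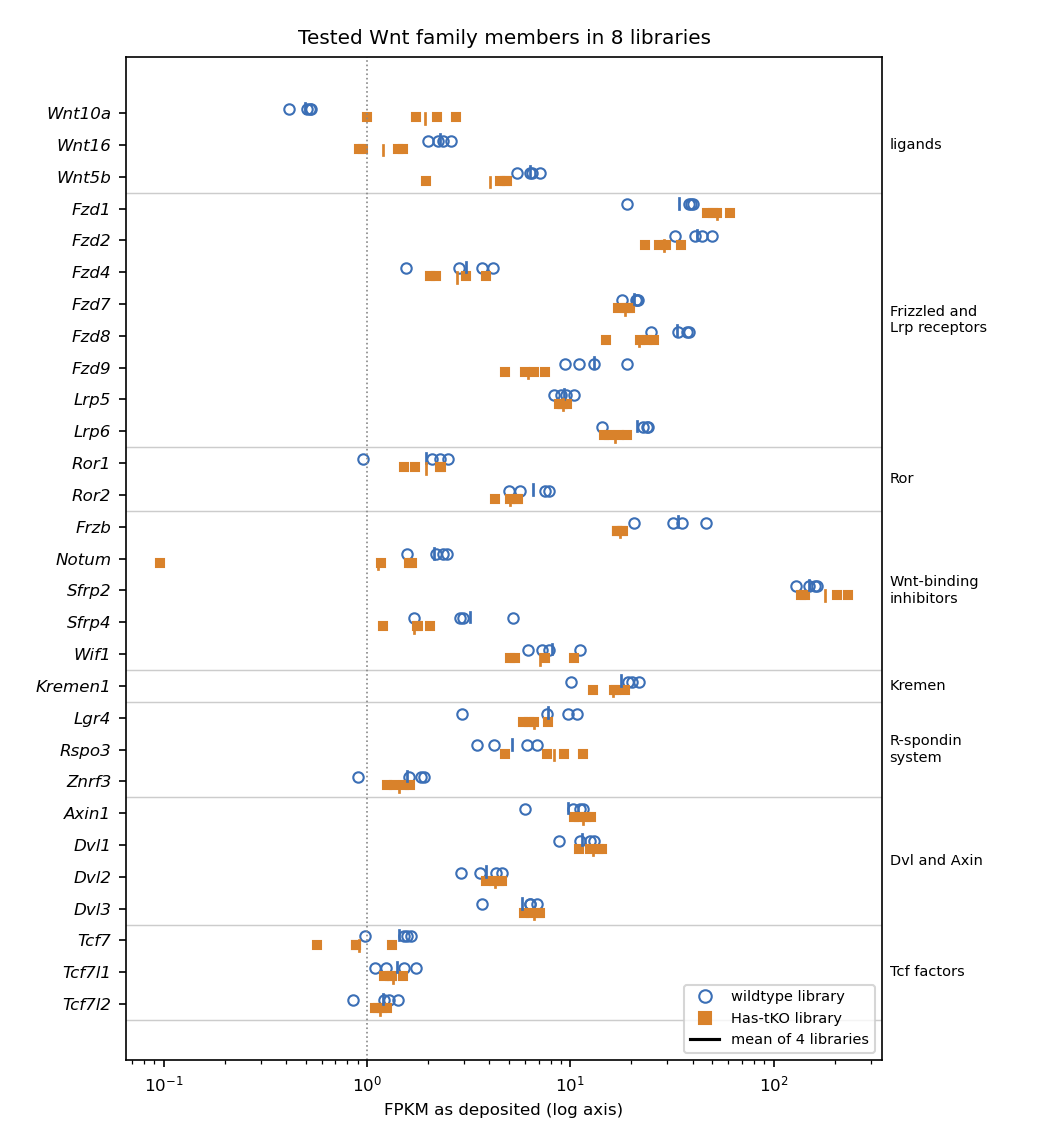
FPKM of the 29 tested Wnt family members, by role, on a log axis, with 1 open circle for each wildtype library, 1 filled square for each Has-tKO library and a short bar at each group's mean. Squares lie right of all circles for Wnt10a and Fzd1 and left of all circles for Wnt16, Wnt5b, Fzd9 and Frzb. The dotted line marks the 1 FPKM of the filter.

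Between genotypes, 1 tested member passed, the ligand Wnt10a, which was higher in Has-tKO, and none fell. All wildtype values of Wnt10a lay under the 1 FPKM of the filter, so it was tested only through the libraries in which it was high and had to differ, and this call is given as a description. The test was limma on log2(FPKM + 1) of all 9916 loci that passed the filter, with Benjamini-Hochberg adjustment over all of them and a threshold of 0.05, and it called 1.77% of those loci, 1.58% higher and 0.192% lower in Has-tKO. At an unadjusted p under 0.05 in the same limma fit, 3 members were higher (Wnt10a, Fzd1 and Rspo3) and 8 lower (Wnt16, Wnt5b, Fzd2, Fzd8, Fzd9, Frzb, Notum and Sfrp4), against 14.4% higher and 2.3% lower among all tested loci. Over the 29 tested members the median log2 fold change was -0.09, while over all tested loci it was 0.16, and 9 members had a positive and 20 a negative value against 73.3% positive among all tested loci. The deposited values were not rescaled for this test. Median-ratio scaling between libraries moved the median of all tested loci to -0.01 and that of the members to -0.27, and then 1 member rose (Wnt10a) and 5 fell (Wnt16, Fzd2, Fzd8, Fzd9 and Lrp6), while 2.74% of all tested loci were called, 1.56% higher and 1.18% lower. At an unadjusted p under 0.05 after scaling, limma gave 2 members higher (Wnt10a and Fzd1) and 12 lower (the 8 above with Lrp6, Ror2, Kremen1 and Tcf7), against 9.8% higher and 8.75% lower among all tested loci. The split of calls therefore depended on the scaling, and fold changes below are given under both. In bulk RNA, fewer cells of a type and less RNA per cell cannot be told apart.

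**Figure D2:**
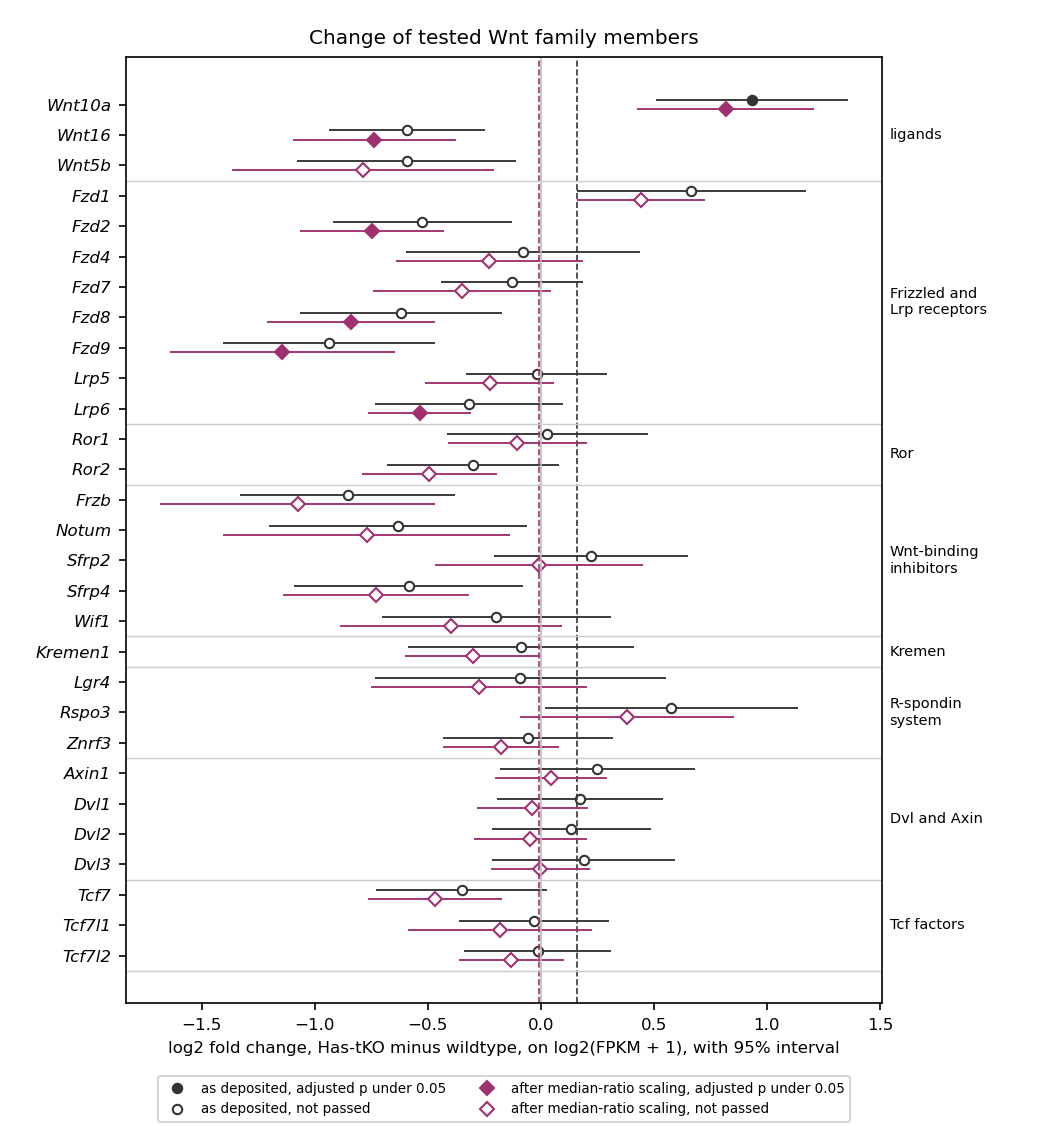
Has-tKO minus wildtype difference in log2(FPKM + 1) of each tested member, as a log2 fold change with its 95% interval, for the values as deposited (circles) and after median-ratio scaling (diamonds), where filled symbols passed an adjusted p of 0.05. Wnt10a, which passed the filter only through Has-tKO, is filled in both, and Wnt16, Fzd2, Fzd8, Fzd9 and Lrp6 are filled only after scaling. Dashed lines mark the medians of all tested loci, at 0.16 and -0.01.

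The cultures carried markers of several cell types, and some of these differed between genotypes alongside the members. Stromal markers such as Pdgfra, Cxcl12 and Vim were present in all 8 libraries, with a summed level of the 8 named of 12 at 486 to 795 FPKM in wildtype and at 655 to 761 in Has-tKO, and after scaling the sums no longer overlapped, at 716 to 745 and 633 to 696. Of the 7 stromal markers tested, 0 rose or fell, and 0 had an unadjusted p under 0.05 in limma, as deposited or after scaling. Macrophage and other myeloid markers, 19 named of 25 and none at 0 throughout, summed to 422 to 717 FPKM in wildtype and to 711 to 1146 in Has-tKO, and 3 of the 18 tested rose. At an unadjusted p under 0.05 in limma, all 18 were higher (14 after scaling), against 14.4% and 9.8% of all tested loci. Chondrocyte markers, 13 named of 17, summed to 216 to 349.5 and 179 to 251 FPKM, and 3 of 11 tested fell (4 after scaling). At an unadjusted p under 0.05 in limma, 9 of the 11 were lower as deposited and 9 after scaling, against 2.3% and 8.75% of all tested loci. Osteoblast markers, 10 named of 17, summed to 326 to 641 and 282 to 359 FPKM, and 0 of 8 tested fell as deposited but 3 did after scaling (Alpl, Ibsp and Smpd3), where the sums no longer overlapped (498 to 649 and 259 to 321). At an unadjusted p under 0.05 in limma, 1 was higher and 3 lower, and 0 higher and 4 lower after scaling. Ibsp was the largest part of the sum (167 to 394 and 115 to 169 FPKM). Dmp1 reached higher values in Has-tKO (3.94 to 7.79 and 5.67 to 12.7 FPKM), and Ifitm5 overlapped (61.4 to 96.9 and 63.1 to 101 FPKM).

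Osteoclast markers, 9 named of 10, summed to 36 to 114 and 34.4 to 55.4 FPKM, adipocyte markers, 10 named of 12 with Lep at 0, to 10.6 to 18.6 and 16.7 to 21.3 FPKM, and endothelial markers, 10 named of 11, to 6.25 to 7.61 and 7.45 to 7.96 FPKM, the last with 50.4% to 78.1% from Egfl7. Pecam1 was at most 0.444 FPKM and Emcn at most 0.00763 FPKM. Esam (0.413 to 0.719 and 0.715 to 1.93 FPKM) and Erg (0.485 to 0.958 and 0.546 to 1.28 FPKM) were higher than these, each with overlap between genotypes. The myeloid sum was thus higher in mean in Has-tKO, as were Wnt10a, Fzd1 and Prkcb, and the chondrocyte and osteoblast sums and the scaled stromal sum were lower, as were Frzb, Wnt5b, Wnt16, Fzd2, Fzd8 and Fzd9. The part of these cell types in the results was not tested.

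Among the ligands, Wnt10a was higher and Wnt5b and Wnt16 were lower in mean in Has-tKO. Wnt10a, a canonical ligand known to favour osteoblast over fat cell formation, was listed at 0.413, 0.525, 0.506 and 0.529 FPKM in the 4 wildtype libraries and at 1.74, 2.22, 2.74 and 1.0 FPKM in the 4 Has-tKO libraries. The groups did not overlap, and Has-tKO 4 was the lowest of its group. The mean was 0.493 ± 0.0543 FPKM in wildtype and 1.92 ± 0.737 in Has-tKO (SD, n = 4 each), a log2 fold change of 0.93 ± 0.19 (SE, limma adjusted p = 0.0384), and 0.82 (limma adjusted p = 0.0438) after scaling. With each library left out in turn and the tested loci kept, the limma adjusted p of Wnt10a ran from 0.0216 to 0.132 and passed without wildtype 1, wildtype 3 or Has-tKO 4 and in none of the other 5 fits (with scaling, only without Has-tKO 4), and with a pseudocount of 0.1 in place of 1 it was 0.0526.

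Wnt16, a ligand known to protect cortical bone, was listed at 2.24, 2.58, 2.01 and 2.37 FPKM in wildtype and at 0.914, 0.955, 1.43 and 1.51 in Has-tKO. Every Has-tKO library lay below every wildtype library. Its log2 fold change was -0.59 ± 0.16 (SE, limma adjusted p = 0.0779), and after scaling it fell by 0.74 on the log2 scale (limma adjusted p = 0.0464), a call that held in 1 of 8 fits with a library left out, the fit without wildtype 3. Wnt5b, a ligand of the non-canonical branch expressed in cartilage, had the highest mean of the ligands analysed. Its values were 7.09, 6.48, 6.33 and 5.46 FPKM in wildtype and 1.96, 4.75, 4.91 and 4.5 in Has-tKO. Has-tKO 1 was far below the other 3, and the groups did not overlap. The difference did not pass either test, with a log2 fold change of -0.59 (95% interval -1.08 to -0.11, limma adjusted p = 0.195) and -0.79 (-1.37 to -0.21, limma adjusted p = 0.143) after scaling, and it was -0.36 without Has-tKO 1.

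The other 15 ligands lay under the filter, 4 of them at 0 throughout. Wnt11, a non-canonical ligand, was the one low member whose groups did not overlap in the deposited values, with 0.338, 0.482, 0.381 and 0.282 FPKM in wildtype and at 0.988, 0.678, 0.75 and 0.69 in Has-tKO (p = 0.0286, exact permutation test, the smallest p that 4 against 4 samples allow, and not adjusted over the 28 low members). Of all named loci under the filter with a value above 0, 2.62% did not overlap. Wnt1, a canonical ligand whose loss causes brittle bones in humans and mice, was listed at 0.406 to 0.889 FPKM in wildtype and at 0.397 to 1.61 in Has-tKO, with overlap. Overlap was also seen for Wnt7b (0.0702 to 0.844 and 0.541 to 1.56 FPKM), Wnt2b (0.528 to 0.843 and 0.731 to 0.954 FPKM), Wnt9a (0.611 to 1.42 and 0.619 to 1.02 FPKM) and Wnt10b (0.424 to 1.37 and 0.42 to 0.682 FPKM). Wnt4 was at most 0.89 FPKM and Wnt6 at most 0.667 FPKM in any library. Wnt2, Wnt3 and Wnt8b were listed at 0 in most libraries.

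The gene of Wnt10a lies next to that of Wnt6 on chromosome 1 in the GRCm38 annotation, and Wnt6 was listed at 0.315, 0.103, 0.114 and 0.384 FPKM in wildtype and at 0.177, 0.277, 0.667 and 0 in Has-tKO. Wnt1 and Wnt10b, which neighbour each other on chromosome 15, overlapped between genotypes as well. No member lies within 10 Mb of Has2 or Has3, and Axin1 and Kremen2 lie within 10 Mb of Has1.

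Of the 6 tested members whose deposited values did not overlap between genotypes, 5 have a RefSeq promoter, and 3 of these, chosen after their values were seen, are shown as examples of both directions: Wnt16 and Fzd9, lower in Has-tKO, and Fzd1, higher. They are RefSeq sequences of the GRCm38.p6 build, from 250 bases before to 50 bases after the annotated start, 5′ to 3′ on the strand of the gene, while the deposited values were made on another build. Wnt16 is at chr6:22287977-22288276 on the plus strand, Fzd9 at chr5:135250998-135251297 on the minus strand and Fzd1 at chr5:4758167-4758466 on the minus strand. Capitals mark the CCAAT box, searched on both strands.
Wnt16: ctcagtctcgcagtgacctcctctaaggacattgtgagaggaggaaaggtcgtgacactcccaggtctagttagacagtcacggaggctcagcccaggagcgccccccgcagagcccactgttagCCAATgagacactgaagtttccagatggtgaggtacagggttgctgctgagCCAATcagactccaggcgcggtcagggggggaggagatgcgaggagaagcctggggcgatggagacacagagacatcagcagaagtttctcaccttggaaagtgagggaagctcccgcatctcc
Fzd9: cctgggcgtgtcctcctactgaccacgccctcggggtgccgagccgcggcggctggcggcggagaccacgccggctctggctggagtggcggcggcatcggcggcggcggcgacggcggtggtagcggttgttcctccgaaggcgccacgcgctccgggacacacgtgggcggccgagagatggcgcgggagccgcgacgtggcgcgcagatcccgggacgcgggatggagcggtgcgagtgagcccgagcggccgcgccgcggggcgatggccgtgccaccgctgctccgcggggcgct
Fzd1: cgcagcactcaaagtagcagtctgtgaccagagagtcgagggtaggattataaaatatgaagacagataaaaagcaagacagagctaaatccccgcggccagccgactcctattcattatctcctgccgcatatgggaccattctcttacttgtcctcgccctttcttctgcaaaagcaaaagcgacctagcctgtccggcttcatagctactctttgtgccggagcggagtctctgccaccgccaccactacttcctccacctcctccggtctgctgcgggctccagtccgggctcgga
The Wnt16 promoter holds 2 CCAAT boxes, starting at bases 126 and 177 of the window, and those of Fzd9 and Fzd1 hold none. The core that Tcf and Lef factors bind, searched as CTTTGAA with the variants CTTTGAT and also CTTTGTA and also CTTTGTT on both strands, is in none of the 3 windows. Of the members of this set that are not shown, Frzb has 1 window with neither motif, and Wnt5b has 3 windows, of which 1 holds a Tcf/Lef core and none a CCAAT box. Over the 53 promoters that RefSeq gives for 44 of the 63 members, 7 (13.2%) hold a Tcf/Lef core and 15 (28.3%) a CCAAT box, against 16.9% and 37.4% of all 32851 promoters of the same length. No member promoter and 75 promoters of the whole table hold overlapping matches of both motifs. Member promoters had a median GC content of 66.7% and a median ratio of observed to expected CpG of 0.744, against 52.7% and 0.384 in all promoters. The windows of Fzd9, Wnt16 and Fzd1 have 78.0%, 58.0% and 54.0% GC.

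Among the receptors, Fzd1 was higher and Fzd2, Fzd8 and Fzd9 were lower in mean in Has-tKO, while the summed Frizzled level overlapped. Frizzled receptors bind Wnt proteins at the cell surface through a cysteine-rich domain. Fzd1, the most abundant in Has-tKO, was listed at 18.9, 40.2, 39.2 and 38.5 FPKM in wildtype and at 50.2, 61.1, 52.8 and 47.3 in Has-tKO. All Has-tKO libraries lay above all wildtype libraries, and wildtype 1 was far below the other 3 wildtype libraries. The log2 fold change was 0.67 ± 0.23 (SE) and did not pass (limma adjusted p = 0.167), and after scaling it was 0.44 ± 0.13 (SE, limma adjusted p = 0.0998). Without wildtype 1 and without scaling it was 0.41 (limma adjusted p = 0.0721).

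Fzd2 was listed at 32.7, 44.3, 40.9 and 49.7 FPKM in wildtype and at 23.4, 34.9, 29.6 and 27.3 in Has-tKO. The groups touched only through wildtype 1, the lowest wildtype library, and Has-tKO 2, the highest Has-tKO library. Its log2 fold change was -0.52 (limma adjusted p = 0.163), and after scaling it fell by 0.75 on the log2 scale (limma adjusted p = 0.0317). Fzd8 was listed at 25, 37.4, 33.9 and 38.3 FPKM in wildtype and at 15, 25.8, 22.1 and 24 in Has-tKO. Here too wildtype 1 was the lowest wildtype library and overlapped with Has-tKO 2, and Has-tKO 1 was the lowest of all. Its log2 fold change was -0.62 (limma adjusted p = 0.147), and after scaling it fell by 0.84 on the log2 scale (limma adjusted p = 0.0341).

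Fzd9, known from mice without it to be needed for normal osteoblast function, was listed at 11.1, 13, 9.38 and 19 FPKM in wildtype and at 4.78, 7.52, 5.97 and 6.63 in Has-tKO. The groups did not overlap, and wildtype 4 was the highest. The mean was 13.1 ± 4.21 FPKM in wildtype and 6.22 ± 1.15 in Has-tKO (SD, n = 4 each), with a log2 fold change of -0.94 ± 0.22 (SE) that stood just short of the threshold (limma adjusted p = 0.0509), and after scaling Fzd9 fell by 1.14 on the log2 scale (limma adjusted p = 0.0329). Fzd7 differed less, at 21.1, 21.3, 18.1 and 21.5 FPKM in wildtype and at 18.6, 17.1, 19.6 and 19.2 in Has-tKO, with a log2 fold change of -0.13 (95% interval -0.44 to 0.19) and -0.35 (-0.74 to 0.05) after scaling. Fzd4, also a receptor for the non-Wnt ligand norrin, overlapped at 1.55 to 4.18 and 2.03 to 3.85 FPKM, with a log2 fold change of -0.08 and -0.23 after scaling. Fzd3, Fzd6 and Fzd10 were at most 0.369, 0.583 and 0.0770 FPKM in any library.

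The co-receptors Lrp5 and Lrp6 are membrane proteins that recruit Axin once Wnt is bound. Lrp5 was listed at 8.36, 9.51, 9.04 and 10.4 FPKM in wildtype and at 9.18, 9.66, 9.14 and 8.77 in Has-tKO, and the log2 fold change was -0.02 (95% interval -0.33 to 0.29), or -0.23 (-0.51 to 0.06) after scaling. Lrp6 was listed at 14.4, 24.2, 23.8 and 22.8 FPKM in wildtype and at 14.7, 19.1, 17.3 and 15.5 in Has-tKO. Wildtype 1 lay below all Has-tKO libraries and the other 3 wildtype libraries above them. Lrp6 did not pass in the deposited values (log2 fold change -0.32, limma adjusted p = 0.423) and fell by 0.54 on the log2 scale after scaling (limma adjusted p = 0.0317). Without wildtype 1 and without scaling its log2 fold change was -0.49. The ratio of Lrp5 to Lrp6 within a library overlapped between genotypes, at 0.38 to 0.581 and 0.507 to 0.626.

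Of the 5 members that fell after median-ratio scaling, all passed under upper-quartile scaling. Scaled to the sum over named loci, Fzd9 passed (limma adjusted p = 0.0318). Wnt16 (0.0514), Fzd2 (0.0688), Fzd8 (0.0706) and Lrp6 (0.223) did not pass under that scaling. The calls of the receptors also depended on which libraries were in the fit. In the fits below, the filter was applied to the 7 libraries left, and Wnt10a did not reach it when a Has-tKO library was left out. Without wildtype 1 and with no scaling, Fzd2 (limma adjusted p = 0.0411), Fzd8 (0.0462), Fzd9 (0.0392) and Lrp6 (0.0455) all passed beside Wnt10a, and without wildtype 3 Fzd9 (0.0241) and Frzb did beside Wnt10a, while no member passed in the other 6 fits. With scaling, the fit without wildtype 3 called Fzd2, Fzd8, Fzd9 and Lrp6 with Wnt16, Ror2 and Frzb, that without wildtype 1 called these 4 receptors with Wnt10a, and that without Has-tKO 2 called Fzd2 alone. In the other 5 fits with scaling, without wildtype 2, wildtype 4, Has-tKO 1, Has-tKO 3 or Has-tKO 4, no member passed.

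Shares within a library do not change when a library is rescaled as a whole, and they are given as a description without a test. Within a group they depend on each other, since a larger share of any gene leaves less for the rest. Of the summed FPKM of the 9 Frizzled genes, Fzd1 made up 22.9% ± 4.25 in wildtype and 40.2% ± 2.8 in Has-tKO (SD, n = 4 each), with ranges of 17.1% to 26.9% and 36.9% to 43.7%. The shares of Fzd2 (28.5% ± 0.923 and 21.8% ± 1.22), Fzd8 (22.9% ± 0.411 and 16.4% ± 2.4) and Fzd9 (8.92% ± 2.09 and 4.71% ± 0.461) were lower in every Has-tKO library than in any wildtype library. That of Fzd7 was 14.3% ± 3.18 and 14.3% ± 2.07, with overlap. The deposited values of Fzd1 and Fzd9 did not overlap either, so their shares restate that separation and add no further support. The summed Frizzled level itself overlapped, at 110.7 to 170.8 FPKM in wildtype and 115 to 150.3 FPKM in Has-tKO. The ratio of Fzd1 to Fzd2, a pair chosen after the values were seen, was 0.58 to 0.958 in wildtype and 1.74 to 2.14 in Has-tKO, so Fzd2 exceeded Fzd1 in all 4 wildtype libraries, wildtype 1 included, and Fzd1 exceeded Fzd2 in all 4 Has-tKO libraries.

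Wnt5b, the most abundant of the 18 ligands analysed, made up 46.8% ± 5.48 of their summed FPKM in wildtype and 30.1% ± 6.8 in Has-tKO (SD, n = 4 each). Wnt10a made up 3.65% ± 0.447 and 14.7% ± 4.75 (SD, n = 4 each). Wnt16 went from 16.9% ± 0.767 to 9.28% ± 2.11 and Wnt11 from 2.72% ± 0.522 to 6.28% ± 2.58. None of these 4 shares overlapped between genotypes, and the summed ligand level did, at 12.5 to 14.8 FPKM and 9.76 to 15.4 FPKM. The deposited values of these 4 genes did not overlap either, so their shares restate that separation and add no further support. Wnt10a passed the filter only through Has-tKO, and Wnt11 lay under it.

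**Figure D3:**
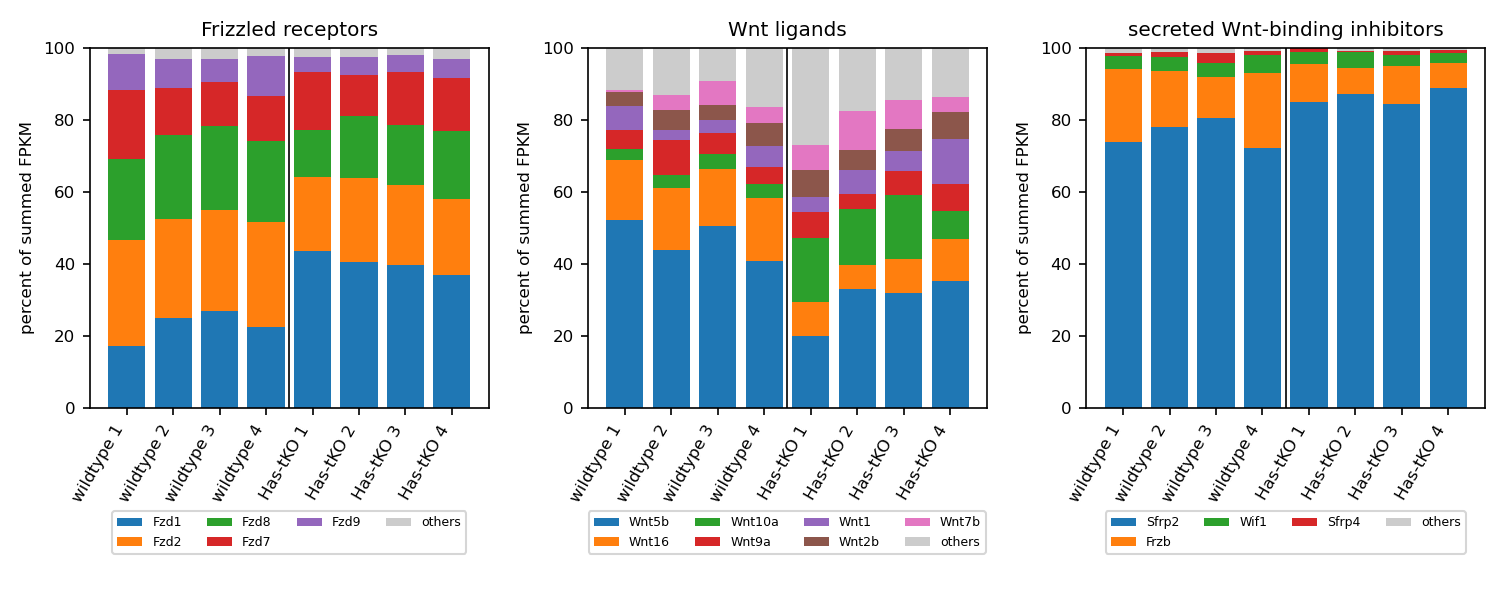
Stacked bars of the percent of summed FPKM that each gene takes within a library, for Frizzled receptors, Wnt ligands and secreted Wnt-binding inhibitors, with 1 bar per library and the vertical line between wildtype and Has-tKO. The Fzd1 segment is 17.1% to 26.9% in wildtype and 36.9% to 43.7% in Has-tKO, and the Wnt5b segment is smaller in all 4 Has-tKO bars.

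The Ror co-receptors, receptor tyrosine kinases of the non-canonical branch, did not pass under either scaling. Ror2 was listed at 5.02, 7.55, 5.67 and 7.9 FPKM in wildtype and at 4.25, 5.53, 5.46 and 5.03 in Has-tKO, with overlap through wildtype 1 that was gone after scaling. Its log2 fold change was -0.30 (limma adjusted p = 0.412) and -0.49 (limma adjusted p = 0.0894) after scaling. Ror1 was listed at 0.954, 2.49, 2.29 and 2.08 FPKM in wildtype and at 1.73, 2.28, 2.32 and 1.53 in Has-tKO, with a log2 fold change of 0.03 (95% interval -0.41 to 0.47) that became -0.10 after scaling.

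The secreted inhibitors that bind Wnt proteins directly did not pass as deposited or after median-ratio scaling either. Of those tested, Frzb, Sfrp4, Notum and Wif1 were lower in mean in Has-tKO and Sfrp2 was higher as deposited. Frzb, also called Sfrp3, a Frizzled-like decoy known from cartilage, was listed at 35.4, 32.1, 20.6 and 46.7 FPKM in wildtype and at 16.9, 17, 17.9 and 18.1 in Has-tKO. The Has-tKO values were tightly grouped below all wildtype values, which spread widely, with wildtype 3 the lowest and wildtype 4 the highest. The mean was 33.7 ± 10.7 FPKM in wildtype and 17.5 ± 0.624 in Has-tKO (SD, n = 4 each), and the log2 fold change was -0.85 ± 0.22 (SE, limma adjusted p = 0.0671), or -1.08 (limma adjusted p = 0.0722) after scaling. Frzb passed without wildtype 3 both as deposited (limma adjusted p = 0.0135) and after median-ratio scaling. With no library left out, it passed when scaled to the sum over named loci (limma adjusted p = 0.04997).

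Sfrp2, a decoy of the same family and the most abundant member of all, was listed at 129, 159.5, 149 and 163 FPKM in wildtype and at 136, 206, 142 and 231 in Has-tKO. Has-tKO 2 and Has-tKO 4 were the highest, while Has-tKO 1 and Has-tKO 3 lay within the wildtype range. Its log2 fold change was 0.22 (95% interval -0.21 to 0.65) and turned to -0.01 (-0.47 to 0.45) after scaling. Sfrp2 made up 76.2% ± 3.82 of the summed level of the 6 inhibitors in wildtype and 86.3% ± 2.07 in Has-tKO, and Frzb 17% ± 4.48 and 8.83% ± 2.03 (SD, n = 4 each). The larger Sfrp2 share does not mean that Sfrp2 itself rose, since the shares of a group depend on each other. The ratio of Sfrp2 to Frzb, a pair chosen after the values were seen, was 3.5 to 7.22 in wildtype and 7.93 to 12.8 in Has-tKO.

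Sfrp4, a further decoy, was listed at 1.71 to 5.24 FPKM in wildtype and at 1.19 to 2.04 in Has-tKO, with a log2 fold change of -0.58 (limma adjusted p = 0.223) and -0.73 (limma adjusted p = 0.0722) after scaling. Notum, an enzyme that removes the lipid from Wnt proteins, was listed at 2.35, 2.19, 2.47 and 1.58 FPKM in wildtype and at 0.0964, 1.67, 1.17 and 1.61 in Has-tKO, with Has-tKO 1 near 0. It did not pass (log2 fold change -0.63, limma adjusted p = 0.243, and -0.77, 0.184, after scaling). Wif1, a Wnt-binding protein made by osteoblasts, overlapped at 6.22 to 11.1 and 5.03 to 10.4 FPKM (log2 fold change -0.20, and -0.40 after scaling), and Sfrp5 was at most 0.198 FPKM.

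**Figure D4:**
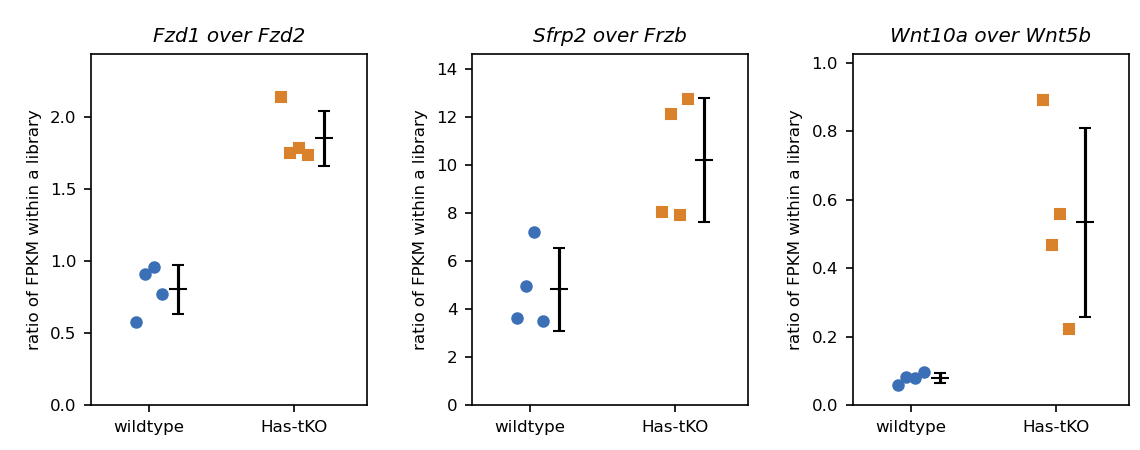
Ratio of the FPKM of 2 genes within each library (points), with the mean and SD of 4 libraries per genotype (bars), for Fzd1 over Fzd2, Sfrp2 over Frzb and Wnt10a over Wnt5b, all on linear axes from 0. In each panel the Has-tKO points lie above the wildtype points, at 0.222 to 0.891 against 0.0583 to 0.0969 for Wnt10a over Wnt5b. Wnt10a passed the filter only through Has-tKO and Wnt5b was lower without overlap, so this last ratio had to separate and is a description. The other pairs shown were chosen after the values were seen. Fzd1 and Frzb did not overlap on their own, so these ratios are descriptions as well and add no further support. Of the ratios not shown, Fzd1 over Fzd7 did not overlap, while Fzd2 over Fzd7 and Lrp5 over Lrp6 did.

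The inhibitors that act on Lrp5 and Lrp6 were low. Dkk2, which blocks Lrp6 and is known for a role in osteoblast maturation, was listed at 0.0762, 0.23, 0.155 and 0.726 FPKM in wildtype and at 2.4, 0.581, 0.746 and 0.758 in Has-tKO (p = 0.0571, exact permutation test, not adjusted over the low members). Has-tKO 1 was the highest, and the groups overlapped through wildtype 4. Dkk1 was at most 0.187 FPKM in any library, and Dkk4, Sost, the osteocyte inhibitor, and Sostdc1 were at most 0.0589, 0.0601 and 0.189 FPKM. Kremen1, a receptor that helps Dkk proteins clear Lrp6 from the membrane, was the tested member of this group, at 10.1, 21.7, 20.2 and 19.2 FPKM in wildtype and at 13, 18.7, 16.8 and 16.3 in Has-tKO. Its log2 fold change was -0.09 (95% interval -0.59 to 0.41) and -0.30 (-0.60 to -0.00) after scaling.

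The R-spondin system, in which R-spondins bind Lgr receptors and keep the ligases Znrf3 and Rnf43 from removing Frizzled receptors, did not pass. Rspo3 was listed at 3.48, 6.13, 6.89 and 4.2 FPKM in wildtype and at 9.35, 11.5, 7.71 and 4.75 in Has-tKO. Has-tKO 1, 2 and 3 lay above all wildtype libraries, and Has-tKO 4 lay within their range. The log2 fold change was 0.58 (95% interval 0.02 to 1.14, limma adjusted p = 0.281) and 0.38 (-0.09 to 0.86) after scaling. Lgr4 was listed at 2.92, 10.8, 9.78 and 7.68 FPKM in wildtype, where wildtype 1 was the lowest of all 8, and 5.85, 6.28, 6.66 and 7.77 FPKM in Has-tKO, a log2 fold change of -0.09 (95% interval -0.74 to 0.55) and -0.27 (-0.75 to 0.20) after scaling. Znrf3 overlapped at 0.904 to 1.91 and 1.26 to 1.63 FPKM, with a log2 fold change of -0.06 and -0.18 after scaling. Lgr5, Lgr6, Rspo4 and Rnf43 overlapped between genotypes, at no more than 0.783 FPKM in any library.

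Inside the cell the transducers gave small differences. Dvl1, which passes the signal from Frizzled, was listed at 8.79, 13.2, 11.1 and 12.5 FPKM in wildtype and at 12.5, 13.7, 14.3 and 11 in Has-tKO (log2 fold change 0.17, 95% interval -0.19 to 0.54, and -0.04 after scaling). Axin1, the scaffold on which beta-catenin is marked for breakdown, was listed at 6.02, 11.2, 10.3 and 11.5 FPKM in wildtype and at 11.1, 12.6, 10.4 and 11.9 in Has-tKO (log2 fold change 0.25, 95% interval -0.18 to 0.68, and 0.04 after scaling). Wildtype 1 was the lowest library for both genes. Dvl2 and Dvl3 had log2 fold changes of 0.13 and 0.19, and -0.05 and -0.00 after scaling. All 4 values were positive as deposited, when the median of all tested loci was 0.16, and 3 of the 4 were negative after scaling. None passed, with an unadjusted p under 0.05 in none of the 4 limma tests under either scaling.

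Axin2, a feedback inhibitor widely read as a marker of canonical signalling, lay under the filter. It was listed at 0.0226, 0.417, 0.55 and 0.51 FPKM in wildtype and at 0.411, 0.786, 0.708 and 0.482 in Has-tKO, with overlap and wildtype 1 near 0 (p = 0.257, exact permutation test). Nkd1, another feedback inhibitor, ranged from 0.251 to 0.992 FPKM in wildtype and from 0.411 to 1.31 in Has-tKO (p = 0.429, exact permutation test), and Apcdd1, a membrane inhibitor, from 0.359 to 0.984 and 0.627 to 1.05 FPKM. The groups overlapped for all 3 genes.

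Of the Tcf and Lef factors, which bind DNA with beta-catenin, none passed under either scaling. Tcf7 was listed at 0.982, 1.52, 1.57 and 1.66 FPKM in wildtype and at 0.883, 0.882, 1.32 and 0.571 in Has-tKO, with overlap between wildtype 1 and Has-tKO 3 that was gone after scaling (log2 fold change -0.35, limma adjusted p = 0.334, and -0.47, limma adjusted p = 0.10, after scaling). Because 3 of its 4 Has-tKO values lay under 1 FPKM, Tcf7 passed the filter mainly through wildtype. Tcf7l1 was listed at 1.75, 1.24, 1.09 and 1.52 FPKM in wildtype and at 1.22, 1.5, 1.33 and 1.3 in Has-tKO, and Tcf7l2 at 0.858, 1.29, 1.42 and 1.21 and 1.09, 1.25, 1.13 and 1.19 FPKM. Their log2 fold changes were -0.03 (95% interval -0.36 to 0.30) and -0.01 (95% interval -0.34 to 0.31), and -0.18 (-0.59 to 0.23) and -0.13 (-0.36 to 0.10) after scaling. Lef1 was at or below 0.0238 FPKM in 7 libraries and at 0.255 FPKM in Has-tKO 4.

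**Figure D5:**
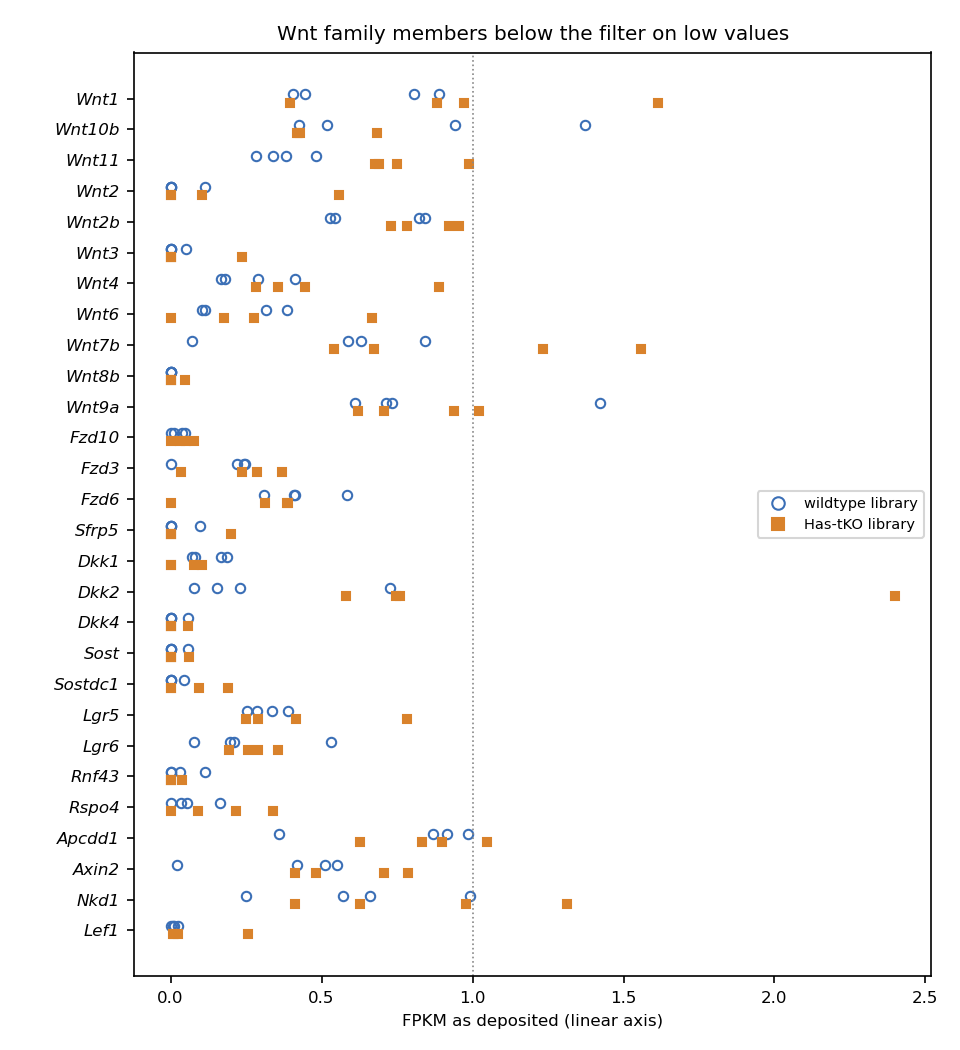
FPKM on a linear axis of the 28 members below the filter that had a value above 0, with open circles for wildtype and filled squares for Has-tKO libraries and a dotted line at 1 FPKM. Wnt11 is the member whose squares all lie right of its circles, and Dkk2 in Has-tKO 1 is the farthest point to the right, at 2.4 FPKM.

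Counted over the family, the deposited values of 2 tested members (Wnt10a and Fzd1) were higher and of 4 (Wnt16, Wnt5b, Fzd9 and Frzb) lower in Has-tKO with no overlap between genotypes, while 13.6% of all tested loci did not overlap, 12.0% higher and 1.53% lower. After scaling, 2 were higher and 12 lower, against 6.52% and 6.6% of all tested loci. The 8 that joined the lower side after scaling were Fzd2, Fzd8, Lrp6, Ror2, Notum, Sfrp4, Tcf7 and Tcf7l2. Under the filter, Fzd6 joined Wnt11 after scaling, as the lower of the pair, which gives 2 of 28 low members against 2.62% of such loci. These counts are descriptions, and members that passed the filter through 1 genotype had to differ.

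The rest of the pathway was counted on 4 lists of genes outside the family. For comparison, limma called 1.58% of all tested loci higher and 0.192% lower, and 1.56% and 1.18% after scaling. At an unadjusted p under 0.05 in limma, 14.4% of all tested loci were higher and 2.3% lower, and 9.8% and 8.75% after scaling. Of 50 genes of Wnt secretion, the destruction complex and beta-catenin cofactors, 33 were tested and none rose or fell in limma (2 were higher and 1 lower at an unadjusted p under 0.05, and 2 higher and 8 lower after scaling), and after scaling 1 fell, Dact1, a Dvl-binding antagonist (log2 fold change -0.72, limma adjusted p = 0.0882, and -0.87, limma adjusted p = 0.0293, after scaling). It was listed at 2.57, 4.52, 3.46 and 3.57 FPKM in wildtype and at 1.05, 2.32, 1.53 and 2.18 in Has-tKO, with no overlap. The other genes of this list with the smallest p were the corepressor Tle4 (1.23 ± 0.696 and 2.6 ± 0.892 FPKM, SD, n = 4 each), the kinase Csnk1e (2.38 ± 0.516 and 3.39 ± 0.106 FPKM) and the kinase subunit Csnk2b (10.1 ± 1.75 and 13 ± 0.936 FPKM). These 3 had limma adjusted p = 0.152, 0.235 and 0.315. The median log2 fold change of the list was 0.12, and -0.09 after scaling.

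Of 40 genes of the planar cell polarity and calcium branch, 24 were tested, and none rose or fell under either scaling (median 0.16, and -0.0016 after scaling). At an unadjusted p under 0.05, limma gave 3 higher and 1 lower, and 2 higher and 3 lower after scaling. The smallest p belonged to Prkcb, a protein kinase C, listed at 1.82, 4.04, 7.32 and 3.3 FPKM in wildtype and at 12, 8.62, 7.58 and 9.32 in Has-tKO (log2 fold change 1.11, limma adjusted p = 0.0654, which was 0.0135 without wildtype 3). The polarity gene Scrib was at 5.84 ± 0.319 and 7.96 ± 0.859 FPKM (SD, n = 4 each), and the calcium-dependent factors Nfatc2 at 0.844 ± 0.455 and 1.77 ± 0.525 FPKM and Nfatc4 at 14.7 ± 0.965 and 11.7 ± 0.684 FPKM. None of these 3 passed, with limma adjusted p = 0.205, 0.171 and 0.298.

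Of 41 extracellular and membrane modulators outside the family, 21 were tested and 1 fell, Vldlr, a lipoprotein receptor related to Lrp6. At an unadjusted p under 0.05, limma gave 2 higher and 5 lower, and 1 higher and 8 lower after scaling. Vldlr was listed at 6.43, 8.58, 7.73 and 9.94 FPKM in wildtype and at 3.47, 3.87, 3.98 and 2.61 in Has-tKO, well apart, and fell by 1.03 on the log2 scale (limma adjusted p = 0.0181, and 0.00992 after scaling). With a library left out and no scaling, its limma adjusted p ran up to 0.0968, and it passed in 5 of 8 such fits. With scaling it passed in all 8 (limma adjusted p up to 0.0483). After scaling Bmper, a secreted BMP-binding protein (4.8, 8.36, 7.0 and 7.7 against 3.94, 4.52, 4.78 and 3.45 FPKM, limma adjusted p = 0.0121), and Draxin, a secreted Lrp6-binding protein (17.3, 34.7, 38.5 and 27.5 against 16, 19, 20.5 and 19.3 FPKM, limma adjusted p = 0.0219), fell as well, at 0.112 and 0.223 before. Dab2, an endocytic adaptor, was at 8.5 ± 4.46 and 17.1 ± 4.29 FPKM (SD, n = 4 each, limma adjusted p = 0.132). The median log2 fold change of the list was -0.04, and -0.18 after scaling.

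Of 50 genes known as Wnt targets in other settings, 28 were tested, and 2 rose, Ccn2, a matricellular growth factor also known as CTGF, and Fosl1, an AP-1 subunit. At an unadjusted p under 0.05, limma gave 5 higher and 3 lower, and 5 higher and 10 lower after scaling. Ccn2 was listed at 25.4, 48.2, 34.9 and 44.5 FPKM in wildtype and at 104, 76.5, 114 and 90.1 in Has-tKO, with no overlap (log2 fold change 1.33, limma adjusted p = 0.0156, and 1.11, 0.0135, after scaling). Fosl1 was listed at 0.749, 1.21, 1.4 and 0.416 FPKM in wildtype and at 3.03, 1.95, 2.62 and 2.4 in Has-tKO (log2 fold change 0.87, limma adjusted p = 0.0478, and 0.0609 after scaling). The AP-1 subunit Jun (17.9 ± 4.24 and 30.1 ± 2.6 FPKM, SD, n = 4 each) passed after scaling only (limma adjusted p = 0.0689 before and 0.044 after), and so did the cartilage factor Sox9 in the other direction (13.3 ± 3.98 and 7.11 ± 1.04 FPKM, limma adjusted p = 0.0966 before and 0.00992 after). The median log2 fold change of the list was 0.11, and -0.11 after scaling. With a library left out and no scaling, Ccn2 passed in 6 of 8 fits, not without wildtype 4 or Has-tKO 1 (limma adjusted p up to 0.0839). Fosl1 passed in 1, without wildtype 3. With scaling, Ccn2 passed in the same 6 fits and Fosl1 in 0.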

How the data were processed

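RNA-seq libraries of 8 mice, 4 wildtype and 4 Has-tKO, were grouped by their labels, and each library was matched to its column by name. The values are FPKM for 76557 loci as deposited by the authors, 26689 of them without a gene name. Per the labels' protocols, ribosomal RNA was depleted and libraries were made by tagmentation, and the submitters' processing notes name the builds GRCm39 and hg38 and the tools bcl2fastq, fastp, HISAT2, StringTie, and DESeq2. For versions, options, the purpose of hg38 and the merging of transcripts into loci, nothing is stated in the sources used here. Low values did not resolve into whole reads (1.18% to 1.62% of low loci at the most frequent ratio between libraries), so depth is unknown and no count test was run.

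The 9916 named loci that reached 1 FPKM in 4 or more libraries were fitted with limma 3.58.1 in R 4.3.3 (empirical Bayes with an intensity trend) on log2(FPKM + 1), two-sided, with Benjamini-Hochberg adjustment over all of them and a threshold of 0.05. Fold changes on this scale understate the change of low genes. The script was tested on simulated data first. Median-ratio size factors came from 14141 loci. Members under the filter were tested by exact permutation of the mean FPKM. Promoters are from RefSeq (GRCm38.p6), and gene neighbourhoods from the GENCODE M21 annotation of GRCm38. Alternatives were other scalings, pseudocounts and filters, no intensity trend, a replicate block, and libraries left out.

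The members, gene lists and tests were chosen with earlier results of these data known. Values per library are given for members that passed with or without scaling, for the 2 tested members of each role with the highest mean and the tested member with the smallest p, for low members without overlap, and for up to 4 genes of each other list with the smallest p. Members outside this rule (such as Notum, Rspo3, Wnt6, Dkk2, Axin2 and Tcf7l1), and Bmper, Draxin, Jun and Sox9, which passed after scaling, were named for their role or call after their values were seen.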

Additional observations from a re-analysis of the deposited data

Results flagged for a closer look

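In 62 groups of 4 libraries, the lowest or highest library was compared with its nearest neighbour by Dixon's test, which flags about 1 in 20 groups by chance and so about 3.1 here. It marked 5, of which 2 were wildtype 1. Fzd1 in wildtype 1 was 18.9 FPKM, far below the other 3 wildtype libraries (38.5 to 40.2 FPKM), and Lrp6 in wildtype 1 was 14.4 FPKM (22.8 to 24.2 FPKM in the others). Both genes have their values without this library in the report. Wnt5b in Has-tKO 1 was 1.96 FPKM, against 4.5 to 4.91 FPKM in the other Has-tKO libraries. Fzd7 in wildtype 3 was 18.1 FPKM, against 21.1 to 21.5 FPKM, a small gap within a narrow group. The summed FPKM of macrophage and other myeloid markers was 717 in wildtype 3, while the other 3 of that group had 422 to 455 and Has-tKO 711 to 1146.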

How the results depend on the processing

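The replicate numbers did not pair the libraries: deviations of same-numbered libraries correlated at -0.11, 0.32, -0.12 and -0.08, and not every library correlated best with its own number. With the replicate block, 2 members were called (Wnt10a and Fzd9), 1 target gene, and with the block and median-ratio scaling 0 members, 0 modulators and 0 targets. The number of members called, 1 as deposited, was 6 after median-ratio and after upper-quartile scaling. It was 3 after scaling to the sum over named loci (Wnt10a, Fzd9 and Frzb), and 0 with a pseudocount of 0.1 or with no filter. It was 2 without wildtype 1 and Has-tKO 4, 4 with scaling as well, and 0 to 7 with 1 library left out under either scaling, where the fit has 7 libraries. Of the other lists, secretion and destruction complex genes gave 1 call under median-ratio and upper-quartile scaling and in both fits without wildtype 1 and Has-tKO 4, and 0 to 3 with 1 library left out. Modulators gave 3, 2 and 4 under median-ratio, sum and upper-quartile scaling, 0 with no filter, 3 in both fits without wildtype 1 and Has-tKO 4, and 0 to 4 with 1 library left out. Targets gave 4 under sum scaling, 1 with a pseudocount of 0.1 or a filter at 0.5 FPKM, 0 with no filter, and 0 to 5 with 1 library left out, and the polarity list 0 to 1. The median log2 fold change of the members was -0.27 under median-ratio scaling, also with the block, -0.29 under upper-quartile scaling, -0.34 and -0.41 without wildtype 1 and Has-tKO 4 (unscaled and scaled), and -0.37 to 0.00048 with 1 library left out. Relative to all loci it was -0.25, and -0.011 with no filter, where loci near 0 dominate. The low members without overlap numbered 2 under both of these scalings and without wildtype 1 and Has-tKO 4, and 1 to 2 with 1 library left out.

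Of 554 refits of named members, 450 kept direction and side of the threshold, 37 gained and 20 lost a call, and 47 changed sign, all in members whose interval as deposited spans 0. The 20 lost calls were all those of Wnt10a, the only member called as deposited, which failed in more of its refits than it passed. Most of the refits that kept their side were of members not called as deposited. Ror1 was -0.10 under median-ratio scaling with or without the block, -0.0092 under sum and -0.11 under upper-quartile scaling, -0.086 and -0.15 without wildtype 1 and Has-tKO 4, and -0.21 to 0.12 with 1 library left out. Sfrp2 was -0.0082 with or without the block, -0.018 under upper-quartile scaling, -0.079 without wildtype 1 and Has-tKO 4 with scaling, and -0.16 to 0.34 with 1 left out. Dvl1 was -0.038 with or without the block, -0.047 under upper-quartile scaling and -0.10 to 0.24 with 1 left out. Without wildtype 1 and Has-tKO 4, Tcf7l1 was 0.044, and Axin1 with scaling -0.044. With 1 library left out under either scaling, Axin1 ran from -0.0078 to 0.34, Tcf7l1 from -0.28 to 0.037, Tcf7l2 from -0.15 to 0.037, Kremen1 from -0.39 to 0.021 and Lgr4 from -0.50 to 0.088. The cause of these changes was not tested. Keeping the tested loci of all 8 libraries when 1 was left out was added after the data were seen. Depth is unknown, so no limit of detection can be set for members listed at 0.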
